A study of Homo sapiens with 6 samples.

Results

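A set of 8 transcription factors that shape hepatocyte gene expression was followed in HepG2 cells after knockdown of the mitotic kinesin KIF11. They were HNF4A, FOXA1, FOXA2, FOXA3, CEBPA, ONECUT1, ONECUT2 and PROX1, taken by gene symbol. All 8 were found among the 20030 genes of the count table, and all 8 were among the 12369 that passed the filter on low counts.

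HepG2 is a human hepatoma line that keeps much of the hepatocyte programme. The control group (sh-ctrl, 3 libraries) carried a control short hairpin RNA and the knockdown group (sh-KIF11, 3 libraries) carried a hairpin against KIF11, a motor protein that separates the poles of the mitotic spindle. Both hairpins were delivered in a lentiviral vector, and cells that had taken it up were selected with puromycin, so every library came from infected and selected cells. The labels list a single hairpin against KIF11, no untreated cells and no rescue. They do not say whether the 3 libraries of a group came from separate cultures, so the p-values below rest on the spread between these libraries. In the edgeR p-values that spread is partly shared across all tested genes and is not that of each gene alone. Poly(A) RNA was sequenced, and the libraries held between 18167773 and 19583282 gene counts. KIF11 itself was counted 1976, 2088 and 2039 times in the control libraries and 1448, 1478 and 1240 times after knockdown, which is -0.75 on the log2 scale (edgeR, adjusted p = 4.22e-15). In bulk RNA, fewer cells expressing a gene and less of its RNA per cell cannot be told apart.

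A hepatocyte is held in its state by a small network of factors that bind together at liver enhancers and at each other's promoters. HNF4A is a nuclear receptor required for most of the secretory and metabolic genes of the hepatocyte. The FOXA proteins are forkhead pioneer factors that open liver chromatin in the embryo, CEBPA is a leucine zipper factor linked to metabolic genes and to withdrawal from the cell cycle, and ONECUT1 (also called HNF6) and ONECUT2 are cut-homeodomain factors of the hepatoblast and the biliary lineage. PROX1 is a homeodomain protein needed for the outgrowth of the liver bud, and it can act as a co-repressor on nuclear receptors, HNF4A among them.

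On GRCh38, GENCODE release 29 places HNF4A at chr20:44355700-44434596 on the plus strand, FOXA1 at chr14:37589984-37596059, FOXA2 at chr20:22581005-22585455, CEBPA at chr19:33299934-33302564 and ONECUT1 at chr15:52756989-52791078 on the minus strand, and FOXA3 at chr19:45863989-45873797, ONECUT2 at chr18:57435685-57491297 and PROX1 at chr1:213983181-214041502 on the plus strand. The counts are per gene and cover all annotated transcripts, so the start sites of one gene cannot be separated. This matters most for HNF4A, which has an upstream start (P2) used in pancreas and fetal liver and a downstream start (P1) used in adult liver. The opposite strand of FOXA1 carries part of TTC6, which was itself counted at 12% to 13.9% of FOXA1 in sh-ctrl and 17.2% to 18.7% in sh-KIF11. The libraries were stranded, but whether counting used the strand is not given in the sources used here.

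Promoters of 6 of the 8 factors were found in RefSeq (GRCh38.p14), as 250 bases before and 50 bases after an annotated start. FOXA2 and PROX1 had no entry there. Some of the windows below were picked by the expression values of their genes, so they are examples and not a sample of promoters. They are the start regions of HNF4A, of the paralogues FOXA1 and FOXA3, whose values moved apart, and of FABP1, the hepatocyte gene with the largest fall. Each is written 5′ to 3′ in the direction of the gene, and capitals mark matches, on either strand, to CAAAGTCC (HNF4), TGTTTAC or TGTTTGC (forkhead), ATCAAT or ATCGAT (ONECUT) and TTGCNNAA (C/EBP).
HNF4A upstream start, chr20:44355449-44355748, plus strand: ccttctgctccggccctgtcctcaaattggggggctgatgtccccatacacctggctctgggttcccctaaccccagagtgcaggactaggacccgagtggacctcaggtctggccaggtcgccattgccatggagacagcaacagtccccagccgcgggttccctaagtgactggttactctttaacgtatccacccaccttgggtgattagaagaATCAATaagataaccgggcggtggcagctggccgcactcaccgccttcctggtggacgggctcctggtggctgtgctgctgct
HNF4A downstream start, chr20:44400989-44401288, plus strand: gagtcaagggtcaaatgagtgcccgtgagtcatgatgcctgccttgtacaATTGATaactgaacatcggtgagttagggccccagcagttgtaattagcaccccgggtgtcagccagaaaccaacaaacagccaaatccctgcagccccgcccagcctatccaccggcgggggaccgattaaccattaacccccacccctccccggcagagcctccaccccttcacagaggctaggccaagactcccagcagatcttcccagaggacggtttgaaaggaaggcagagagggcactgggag
FOXA1, chr14:37595200-37595499, minus strand: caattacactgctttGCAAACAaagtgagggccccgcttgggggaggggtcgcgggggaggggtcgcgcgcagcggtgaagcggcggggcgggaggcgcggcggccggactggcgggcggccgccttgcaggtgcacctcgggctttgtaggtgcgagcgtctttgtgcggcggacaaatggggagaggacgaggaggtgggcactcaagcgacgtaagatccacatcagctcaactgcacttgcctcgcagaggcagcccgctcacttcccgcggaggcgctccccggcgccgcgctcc
FOXA3, chr19:45864076-45864375, plus strand: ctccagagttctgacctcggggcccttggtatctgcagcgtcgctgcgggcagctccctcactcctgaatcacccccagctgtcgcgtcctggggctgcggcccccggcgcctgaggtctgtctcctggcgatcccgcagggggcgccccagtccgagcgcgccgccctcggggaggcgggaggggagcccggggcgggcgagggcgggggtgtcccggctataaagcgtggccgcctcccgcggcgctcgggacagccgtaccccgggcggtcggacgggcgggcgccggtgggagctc
FABP1, chr2:88128013-88128312, minus strand: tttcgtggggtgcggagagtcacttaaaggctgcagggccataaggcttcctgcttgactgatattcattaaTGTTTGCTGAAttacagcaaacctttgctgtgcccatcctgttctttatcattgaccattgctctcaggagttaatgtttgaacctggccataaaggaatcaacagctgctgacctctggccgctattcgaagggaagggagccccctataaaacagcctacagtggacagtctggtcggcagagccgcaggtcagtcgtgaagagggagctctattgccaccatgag

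The downstream HNF4A window held 1 ONECUT match, which begins 200 bases before the start. The upstream HNF4A window held 1 ONECUT match. The FOXA1 window held 1 forkhead match, and the windows of FOXA3, CEBPA, ONECUT1 and ONECUT2 held none of the 6 motifs. In FABP1 the forkhead and C/EBP matches overlap, and they begin 178 and 175 bases before the start. Of all 35116 promoter windows in the table, 1.2% held the HNF4 letters, 3.42% TGTTTAC, 3.89% TGTTTGC, 6.26% ATCAAT, 0.763% ATCGAT and 10.5% the C/EBP letters. Of 41 windows of 30 hepatocyte genes listed below, 19.5% held TGTTTGC and 26.8% the C/EBP letters. FABP1 is thus 1 picked case among them. A match describes letters only and does not show binding. Whether the matches have a part in any fold change was not tested.

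HNF4A, FOXA2, FOXA3, CEBPA and ONECUT1 were lower in sh-KIF11, PROX1 was slightly higher, and FOXA1 and ONECUT2 did not pass the test. The falls lay between 0.36 and 0.93 on the log2 scale, so none of the 8 factors changed 2-fold. The test was edgeR's quasi-likelihood fit over 12369 genes with TMM scaling, and a gene was called at a Benjamini-Hochberg adjusted p under 0.05. By this rule 69.1% of all tested genes were called. As shares of all tested genes, 34.7% were called lower and 34.4% higher, so a call by itself was common in this comparison. Against that background 5 of the 8 factors were called lower and 1 higher. Their median log2 fold change was -0.41, beside 0.004 over all tested genes, whose quartiles were at -0.31 and 0.36.

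HNF4A was the factor with the most counts. It reached 323, 333 and 306 CPM (counts scaled to library size with TMM factors) in sh-ctrl and 230, 229 and 237 CPM in sh-KIF11. Every knockdown library lay below every control library. The group means were 321 ± 13.8 and 232 ± 4.05 CPM (SD, n = 3). HNF4A thus had a log2 fold change of -0.47 (SE 0.0488, 95% interval -0.57 to -0.37, edgeR adjusted p = 3.43e-11).

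**Figure D1:**
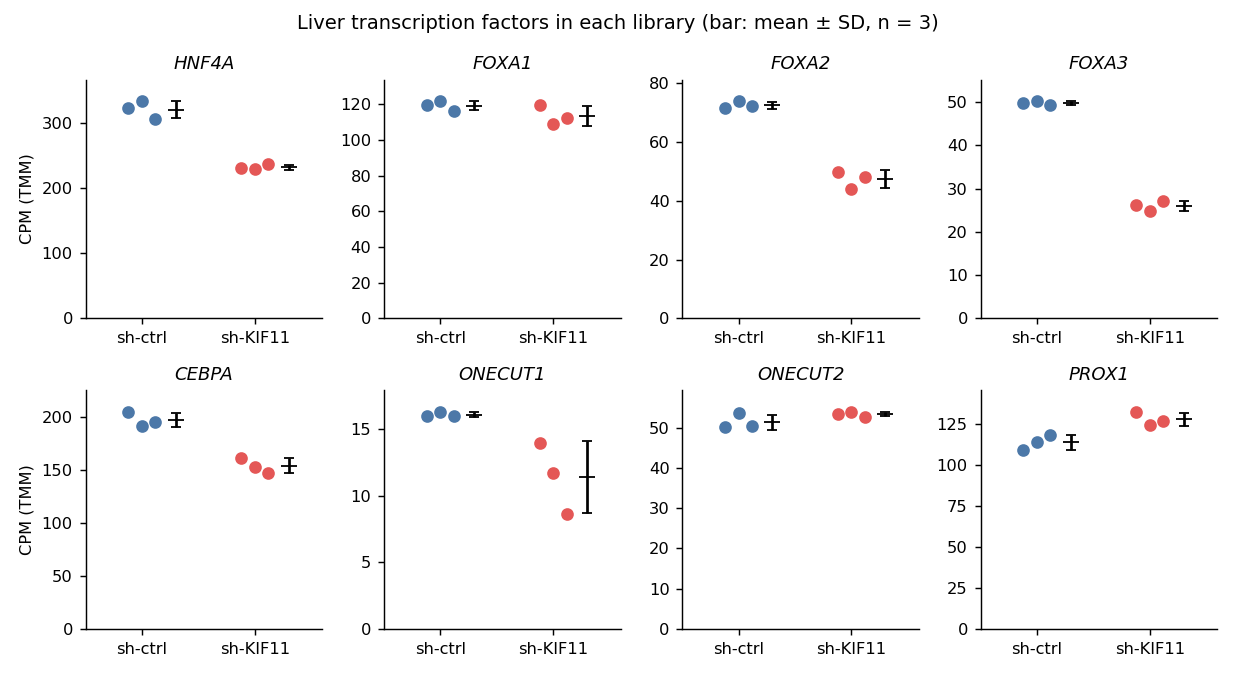
CPM after TMM scaling (vertical axes, each from 0) of the 8 factors in the 3 sh-ctrl (blue) and 3 sh-KIF11 (red) libraries, with the mean and SD of each group as a black bar. The groups are apart for 6 factors, while those of FOXA1 and ONECUT2 overlap, and the sh-KIF11 values of ONECUT1 run from 8.62 to 14 CPM.

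The 3 FOXA paralogues did not move together. FOXA3, a member prominent in adult liver, had the largest change of the 8 factors, with 49.8, 50.2 and 49.3 CPM in sh-ctrl and 26.1, 24.8 and 27.2 CPM in sh-KIF11. The 2 groups were far apart and each was narrow. Its log2 fold change was -0.93 (SE 0.0726, edgeR adjusted p = 7.25e-15), and 86.9% of all tested genes changed by less in either direction.

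FOXA2, which is also active in the endoderm and in bile acid and lipid handling, fell to a lesser extent. It had 71.6, 73.9 and 72.3 CPM in sh-ctrl and 49.9, 43.9 and 48.0 CPM in sh-KIF11, with no overlap. The log2 fold change was -0.62 (SE 0.0626, edgeR adjusted p = 1.46e-11).

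FOXA1, a pioneer factor shared by liver, breast and prostate, had 120, 122 and 117 CPM in sh-ctrl and 120, 109 and 112 CPM in sh-KIF11. The groups overlapped, because the first sh-KIF11 library was level with the controls. The difference was -0.07 on the log2 scale with a 95% interval from -0.18 to 0.03 (edgeR adjusted p = 0.223). A fall of the size seen for FOXA2 or FOXA3 lies outside that interval, and a small change in either direction lies within it.

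Because the scaling of whole libraries cancels in a ratio of 2 genes from the same library, the paralogues were also set against each other. The ratio of FOXA1 to FOXA3 in FPKM (fragment counts scaled to gene length and library size) was 1.29 in sh-ctrl and 2.32 in sh-KIF11, and that of FOXA1 to FOXA2 was 1.39 and 2.02. The ratio of FOXA2 to FOXA3 was 0.929 and 1.15. In each case the 3 sh-KIF11 libraries were above the 3 sh-ctrl libraries, which gives p = 0.1 in an exact two-sided permutation test, the smallest value that 3 against 3 can give, and 0.1 after adjustment over the 4 paralogue ratios. FOXA1 made up 40.1% ± 0.765 of the summed FOXA FPKM in the controls and 51.9% ± 0.736 after knockdown (SD, n = 3), while FOXA3 went from 31.1% ± 0.288 to 22.4% ± 0.662 and FOXA2 from 28.9% ± 0.572 to 25.7% ± 0.503.

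**Figure D2:**
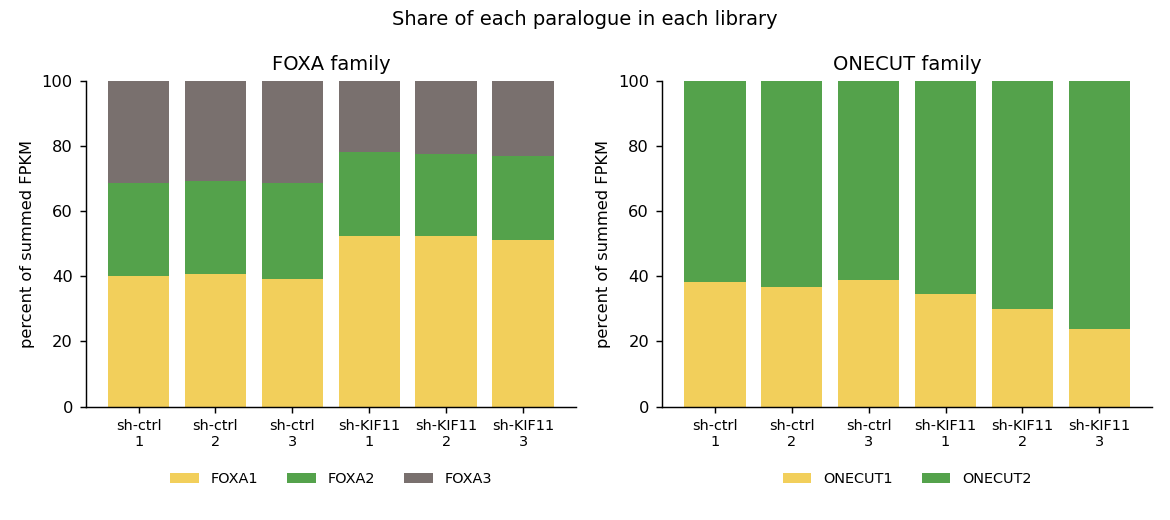
Percent of the summed FPKM of the FOXA family (left) and of ONECUT1 and ONECUT2 (right) held by each paralogue, 1 bar per library. FOXA1 holds 39.2% to 40.8% in the sh-ctrl bars and 51.1% to 52.4% in the sh-KIF11 bars, and ONECUT1 holds 36.6% to 38.8% and 23.7% to 34.7%.

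CEBPA was called lower by a smaller margin. It had 205, 191 and 195 CPM in sh-ctrl and 161, 153 and 147 CPM in sh-KIF11, and the groups did not overlap. The log2 fold change was -0.36 (SE 0.0506, edgeR adjusted p = 5.55e-08). In FPKM, however, the groups lay close, at 68.1 ± 2.50 and 62.8 ± 2.52 (SD, n = 3), and the lowest sh-ctrl library was only just above the highest sh-KIF11 library (65.4 and 65.2). In log2(FPKM + 0.1) the median of all tested genes was itself 0.17 higher in sh-KIF11.

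ONECUT1 was the least abundant of the 8 factors and the most variable. Its counts were 285, 294 and 270 in the controls and 280, 242 and 170 after knockdown, or 16, 16.3 and 16 CPM against 14, 11.7 and 8.62 CPM. The control libraries were nearly equal, and the knockdown libraries were spread from slightly below them to far below them. The log2 fold change was -0.49 (SE 0.114, edgeR adjusted p = 0.000212). Without the third sh-KIF11 library it was -0.33 (edgeR adjusted p = 0.00892). In FPKM the groups overlapped, with the lowest control library at 1.89 and the highest knockdown library at 1.91, and limma on log2(FPKM + 0.1) did not call the gene (adjusted p = 0.0929).

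ONECUT2 had 50.3, 53.5 and 50.4 CPM in sh-ctrl and 53.5, 53.9 and 52.7 CPM in sh-KIF11, and the groups overlapped. The difference was 0.05 on the log2 scale with a 95% interval from -0.07 to 0.18 (edgeR adjusted p = 0.462). ONECUT1 therefore held 37.9% ± 1.14 of the summed ONECUT1 and ONECUT2 FPKM in the controls and 29.5% ± 5.55 after knockdown (SD, n = 3). The ONECUT1 to ONECUT2 ratio differed by -0.56 on the log2 scale (exact permutation p = 0.1), or -0.35 without the third sh-KIF11 library. ONECUT3, the third paralogue, had no count in any sh-ctrl library, and the sh-KIF11 libraries had 16, 4 and 12. Against a limit of 3 counts per control library its mean level was at least 3.12-fold higher, and it was too rare to be tested.

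PROX1 was the single factor called higher. It had 109, 114 and 118 CPM in sh-ctrl and 132, 124 and 127 CPM in sh-KIF11. The knockdown libraries were all above the control libraries, although the gap was small. The log2 fold change was 0.17 (SE 0.0518, edgeR adjusted p = 0.00392), and 27.4% of all tested genes changed by less in either direction.

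For 6 of the 8 factors, all but FOXA1 and ONECUT2, the CPM of the groups did not overlap, which held for 71.2% of all tested genes. The exact permutation p of the CPM was 0.1 for each of these 6, the smallest value possible. It was 0.2 for FOXA1 and 0.3 for ONECUT2. Set against HNF4A within the same library, PROX1 had the largest upward difference, its ratio to HNF4A being 1.55 times as high in sh-KIF11 as in sh-ctrl, followed by ONECUT2 at 1.44 times and FOXA1 at 1.31 times. The ratio of FOXA2 to HNF4A was 0.899 times and that of FOXA3 to HNF4A 0.723 times its control value. These 5 ratios did not overlap between groups (exact permutation p = 0.1, adjusted p = 0.14 over 7 ratios). For CEBPA and ONECUT1 the ratio to HNF4A overlapped between groups, with log2 differences of 0.11 and -0.06 (exact permutation p = 0.3 and 0.9). Without the third sh-KIF11 library the difference for ONECUT1 was 0.15.

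The choice of scaling shifted all 8 values together. The TMM factors were 0.922 to 0.926 for sh-ctrl and 1.08 to 1.09 for sh-KIF11. The 44 hepatocyte genes described below summed to between 45600 and 47600 CPM in sh-ctrl and between 20200 and 21700 CPM in sh-KIF11. Whether these genes have a part in the difference between the TMM factors was not tested. With library totals alone the median of all genes moved to 0.24 on the log2 scale, 53.5% of tested genes were called higher and 19.2% lower. On that scale HNF4A was at -0.24, FOXA2 at -0.39, FOXA3 at -0.70, CEBPA at -0.13 and ONECUT1 at -0.26, all 5 still called lower (edgeR, adjusted p at most 0.0354). FOXA1 was then at 0.16 (adjusted p = 0.00617), ONECUT2 at 0.29 (adjusted p = 0.000124) and PROX1 at 0.40 (adjusted p = 4.24e-09), so that 3 factors were called higher. Relative to the median of all genes on that scale, FOXA1 was below it, ONECUT2 slightly above it and PROX1 above it. The paralogue ratios do not depend on this choice.

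**Figure D3:**
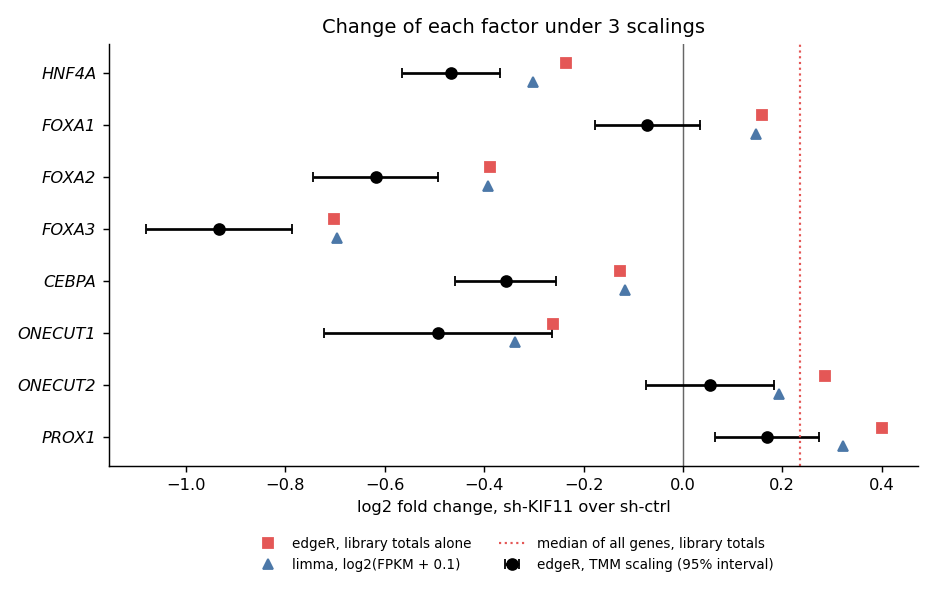
Log2 fold change, sh-KIF11 over sh-ctrl (horizontal axis), of each factor from edgeR with TMM scaling (black, bar: 95% interval), edgeR with library totals alone (red squares) and limma on log2(FPKM + 0.1) (blue triangles), with the median of all genes under library totals as a dotted line at 0.24. HNF4A, FOXA2, FOXA3, CEBPA and ONECUT1 lie left of 0 in all 3, PROX1 lies right of 0 in all 3, and FOXA1 lies left of 0 with TMM and right of it in the other 2. The median of all genes by limma, not drawn, was 0.17.

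Levels were compared between genes in FPKM. In sh-ctrl the order was CEBPA (68.1), HNF4A (35.4), FOXA1 (26.0), FOXA3 (20.2), FOXA2 (18.8), PROX1 (10.9), ONECUT2 (3.13) and ONECUT1 (1.91), and no neighbours overlapped in their 3 libraries. In sh-KIF11 the order was CEBPA (62.8), FOXA1 (28.9), HNF4A (28.7), FOXA2 (14.3), PROX1 (13.7), FOXA3 (12.4), ONECUT2 (3.59) and ONECUT1 (1.52). There FOXA1 could not be separated from HNF4A, nor FOXA2 from PROX1, because their libraries overlapped. FOXA3 passed from the fourth to the sixth place.

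The other liver-enriched factors that work with these 8 were lower more often than higher. Of 28 listed, 26 were tested, and 19 fell, 4 rose and 3 did not pass, with a median log2 fold change of -0.60. Genes that the deposited table annotates with a transcription factor family served as a wider comparison. Of 529 tested, 30.1% were called lower and 39.7% higher, with a median of 0.07. That annotation is incomplete, being blank for FOXA3, ONECUT2 and PROX1, and it labels FOXA1 a chromosome remodelling factor. The list of other liver-enriched factors holds 9 nuclear receptors, of which 8 were tested, and 6 fell, 1 rose and 1 did not pass. NR1H4 (FXR, the bile acid receptor) fell from 74.5 ± 8.39 to 27.2 ± 1.30 CPM (SD, n = 3), or -1.45 on the log2 scale (edgeR adjusted p = 7.57e-21). NR0B2 (SHP), which is induced by that receptor, fell by 0.51 on the log2 scale (edgeR adjusted p = 1.18e-11). NR1I2 (PXR, a sensor of foreign compounds) rose by 0.54 (edgeR adjusted p = 8.24e-07), and NR2F2 was at 0.13 (edgeR adjusted p = 0.152). KLF15, a factor of fasting metabolism, fell by 2.12 from a low level of 2.17 CPM.

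Among the 26 tested factors of this list the largest rises were those of ZBTB20 and TBX3. ZBTB20, known as a repressor of AFP in the postnatal liver, went from 14.6 ± 1.91 to 46.0 ± 1.51 CPM (log2 fold change 1.65, edgeR adjusted p = 8.80e-21). TBX3, which promotes the hepatocyte over the biliary fate in the embryo, went from 101 ± 5.62 to 195 ± 1.64 CPM (SD, n = 3), with a log2 fold change of 0.95 (edgeR adjusted p = 8.04e-20).

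The study's labels pose no question about these factors, and the comparison made here is whether they moved together with the genes of the differentiated hepatocyte. The hepatocyte genes listed here were lower in sh-KIF11, and by more than the factors. Because the lists were chosen with earlier results of these data known, this describes the listed genes and is not independent evidence of a fall. Of 44 listed genes 38 were tested, and 32 fell, 3 rose and 3 did not pass, with a median log2 fold change of -1.20. An estimated change beyond 2-fold in either direction was found for 27 of the 38 hepatocyte genes and for none of the 8 factors. The 27 include the rises of CYP7A1 and CYP2E1. Changes of that size were uncommon among all tested genes, 86.9% of which changed by less than FOXA3, so their absence is not particular to the 8 factors. The most negative factor, FOXA3, was at -0.93, and 26 of the 38 hepatocyte genes (68.4%) were below it, as were 7 of the 26 other liver-enriched factors.

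Plasma carriers fell in 13 of 14 cases, with a median of -1.56. ALB, encoding albumin, had 7623, 8107 and 9364 CPM in sh-ctrl and 3164, 2936 and 2811 CPM in sh-KIF11, so that the highest knockdown library was far below the lowest control (log2 fold change -1.49, edgeR adjusted p = 7.28e-25). TF (transferrin), APOC3 and APOA1 fell further, with log2 fold changes of -2.28, -1.96 and -1.92. APOB, the structural protein of very low density lipoprotein, fell by only 0.35. TTR (transthyretin), at 26.2 ± 4.79 and 24 ± 3.0 CPM (SD, n = 3), did not pass the test (log2 fold change -0.13, edgeR adjusted p = 0.229).

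Of the coagulation factors and protease inhibitors 10 of 11 tested genes fell, with a median of -1.49. Examples were SERPINC1 (antithrombin) at -1.62 and SERPINA1 (alpha-1-antitrypsin) at -1.57. Metabolic genes were less uniform, as 9 of 13 fell, 3 rose and 1 did not pass. FABP1, the fatty acid binding protein of liver whose promoter is shown above, had 261, 325 and 330 CPM in sh-ctrl and 25.2, 17.4 and 18.6 CPM after knockdown. This is a log2 fold change of -3.90 (SE 0.0845, edgeR adjusted p = 7.62e-34). G6PC, the last step of glucose release, fell by 1.36. CPS1 of the urea cycle rose by 0.58 (edgeR adjusted p = 1.51e-10), CYP7A1, the rate-limiting enzyme of bile acid synthesis, rose by 1.11 from 2.29 CPM, and CYP2E1 rose by 2.44 from 0.419 CPM.

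Genes classically placed under HNF4A could be tested in 19 of 24 cases, and 14 fell, 1 rose and 4 did not pass, with a median of -1.07. Those classically placed under CEBPA or the FOXA factors could be tested in 11 of 12 cases, and 8 fell, 1 rose and 2 did not pass, with a median of -1.23. These lists are not separate from the hepatocyte genes, since 19 of the 24 and 10 of the 12 stand in both. HP (haptoglobin), an acute-phase gene on the C/EBP list, fell by 1.85. Of the 19 tested HNF4A targets 12 fell further than HNF4A itself.

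**Figure D4:**
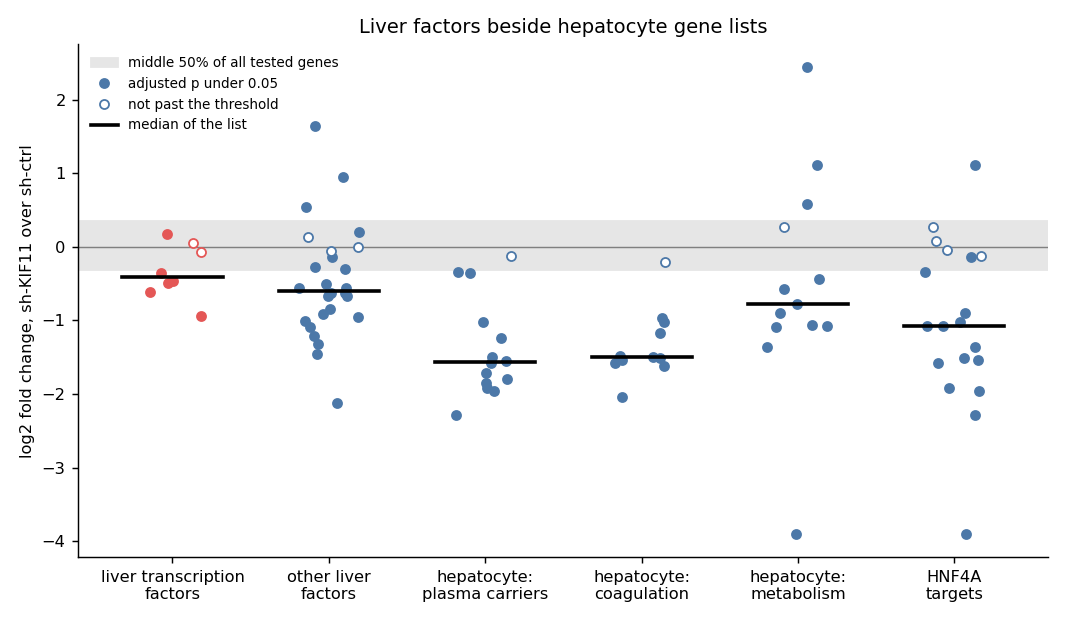
Log2 fold change, sh-KIF11 over sh-ctrl (vertical axis), of the 8 factors (red) and of the tested genes of 5 lists (blue), filled where the edgeR adjusted p was under 0.05, with each list's median as a black line and the range between the quartiles of all tested genes in grey. The median of the factors is -0.41 and those of the carriers and the coagulation genes are -1.56 and -1.49.

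Genes of neighbouring liver states were divided. The biliary and progenitor list had 8 tested genes, of which 4 rose and 4 fell. SOX4 rose from 10.1 ± 1.13 to 64.3 ± 3.25 CPM and KRT19, a keratin of bile duct cells, from 131 ± 8.45 to 663 ± 56.8 CPM (SD, n = 3), with log2 fold changes of 2.67 and 2.34. SOX9, a transcription factor of the biliary lineage, fell by 0.56. Oncofetal liver genes fell in 6 of 8 cases, with AFP at -1.24 and IGF2 at -1.78, while IGF2BP3 rose by 0.15. Among mesenchymal genes 5 of 9 could be tested, and 3 rose, 1 fell and 1 did not pass. ZEB1 rose by 0.87 and FN1 (fibronectin) fell by 0.76. ZEB2 had between 0 and 2 counts per control library and between 32 and 50 after knockdown, a ratio of 53.6 with an exact 95% counting interval from 14.5 to 448.

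Markers of other liver cells were scarce. The 6 stellate cell and fibroblast markers summed to 2.55 to 3.93 CPM in sh-ctrl and 1.40 to 2.04 CPM in sh-KIF11, with DCN at 0 in every library and PDGFRB lower (-1.16). The 5 endothelial markers summed to 3.16 to 3.56 and 4.69 to 4.98 CPM, with TEK at 0 and VWF higher (1.01). The 5 leucocyte markers summed to 78.9 to 90.0 and 45.6 to 49.9 CPM, nearly all of it CD68, a lysosomal protein that fell by 0.90. CD79A rose by 1.89 from 0.948 CPM, and CD14 fell by 1.78 from 1.21 CPM. PTPRC, which marks all leucocytes, had at most 1 count in any library. Whether the scarce markers that moved have a part in the values of the factors was not tested.

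The genes whose values over the 6 libraries lay nearest to each factor were found among 10319 genes that averaged 5 CPM or more, by the Euclidean distance between log2 CPM centred on the sh-ctrl mean. With only 2 conditions this measure mainly finds genes of the same fold change. The nearest to HNF4A were CRAT and HDLBP, at distances of 0.0358 and 0.0430. For FOXA1 they were PLEKHA7 and STAT5B, for FOXA2 PSMB10 and MALSU1, and for FOXA3 GPX2 and SERPIND1. Those of CEBPA were DPP3 and DPAGT1, those of ONECUT2 AKAP8 and FAM200B, and those of PROX1 SENP5 and FAM114A2, all at distances under 0.08. ONECUT1 had no neighbour as close, its nearest being SLC2A4 at 0.201 and SERGEF at 0.280.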

How the data were processed

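HepG2 libraries (3 sh-ctrl, 3 sh-KIF11) were grouped by their labels. Per the submitters' processing notes, reads were handled with bcl2fastq 1.8.4, Trimmomatic, HISAT2 2.1.0, Cufflinks 2.2.1, HTSeq 0.9.1 and DESeq on GRCh38, with no roles given. The authors deposited raw counts per gene and a second table of FPKM, already scaled by them to length and depth. Knockdown columns named only as shRNA were matched to sh-KIF11 by number, because only 1 targeting shRNA is named in the labels.

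The count model was edgeR 4.0.16 under R 4.3.3 (filterByExpr, TMM, quasi-likelihood fit with group as the only term, Benjamini-Hochberg adjustment over 12369 genes, threshold 0.05). Intervals of fold changes are the log2 fold change ± the t quantile times its SE. The count of 3 used as a detection limit and the counting intervals cover counting error only. Single values and ratios within a library were compared by exact two-sided permutation tests. Procedures were tested on simulated data with far fewer changed genes than were called here, evenly split between rises and falls. That setting does not test the choice of scaling. Alternatives were RLE, upper-quartile and library-total scaling, other count filters, a block for the replicate number, leaving out single libraries, DESeq2 1.42.0, and limma 3.58.1 on log2(FPKM + 1) and log2(FPKM + 0.1).

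The factors and gene lists were chosen with earlier results of these data known. Named from each list were up to 2 genes with the most negative and 2 with the most positive log2 fold change among called genes that averaged 1 CPM or more, with no overlap between groups, plus ALB, TTR, APOA1, APOB, APOC3, NR1H4, NR0B2, CYP7A1 and AFP. ONECUT3, NR1I2, NR2F2 and genes given for defining markers were added after their values were seen. TTC6 was added because it overlaps FOXA1. Results of further genes chosen this way are left out.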

Additional observations from a re-analysis of the deposited data

How the results depend on the processing

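The fold changes and counts of calls were recomputed under 15 alternatives. HNF4A, FOXA2, FOXA3, CEBPA and PROX1 kept their direction and stayed past the threshold in all 15, with log2 fold changes from -0.50 to -0.24, -0.66 to -0.37, -0.97 to -0.66, -0.39 to -0.12 and 0.14 to 0.40. The scaling decided the sign of FOXA1, which was 0.00735 with upper-quartile normalization (edgeR adjusted p = 0.909), 0.159 with library totals alone, 0.143 with limma on log2(FPKM + 1) and 0.147 with limma on log2(FPKM + 0.1). ONECUT1 was at -0.216 (adjusted p = 0.0871) and -0.337 (adjusted p = 0.0929) by limma with the pseudocounts 1 and 0.1, and no longer passed. ONECUT2 passed as higher with library totals (0.285) and by limma (0.153 and 0.193), so that 3 of the 8 factors were called higher under these 3 alternatives. The median of all genes was itself above 0 there, at 0.235 with library totals and at 0.116 and 0.169 by limma with the pseudocounts 1 and 0.1. By limma, FOXA1 and ONECUT2 thus lay near the median of all genes. Leaving out each library in turn moved ONECUT1 between -0.66 and -0.33 and FOXA1 between -0.11 and -0.04 and changed no call of a factor.

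The split of called genes followed the scaling too, with 49.8% of calls higher under TMM, 58.5% with upper-quartile normalization, 73.6% with library totals and 68.5% and 68.6% by limma. The median of the 8 factors was -0.18 with library totals and that of the hepatocyte genes -0.97. With the replicate number as a block 8607 genes were called, and no call of a factor changed. The deviations of libraries with the same number correlated at 0.125, -0.0906 and 0.0367, so the numbers were not taken to pair the libraries. Counts of 170 to 294 limit ONECUT1. A single hairpin and 1 cell line limit what the groups stand for.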
